A study of Homo sapiens with 12 samples.

Results

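The 8 genes described here, CBLN2, ADAM23, CABLES1, CCDC110, SYCP3, CD200R1, LGALS17A and CR2, were picked because their expression was much lower in MM.1S cells exposed to pomalidomide and dexamethasone. They are 8 of 14884 genes tested, and 9 of the 53617 rows of the expression table map to them, since CABLES1 has 2 rows. They were selected on large falls in 3 contrasts (PD minus Control, FPD minus Control and FPD minus F), so the sizes of those falls are a description of the choice and carry no test. The other contrasts, F minus Control, FPD minus PD and FPD - PD - F + Control, are each a difference between contrasts that chose the genes. Their values for the 8 genes are therefore not independent of the choice and are given as sizes with their errors. Counts of the 8 genes that pass a threshold in them are descriptions too.

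MM.1S is an established human multiple myeloma line, and its cells were exposed for 24 h in 4 groups of 3 Affymetrix arrays. Control cells received vehicle only. PD cells received 500 nM pomalidomide, which redirects the cereblon ubiquitin ligase to the transcription factors IKZF1 and IKZF3, with 10 nM dexamethasone, an agonist of the glucocorticoid receptor. FPD cells received these drugs at the same doses with 1 nM filanesib, an inhibitor of the mitotic kinesin encoded by KIF11. F cells are labelled as having received 1 nM filanesib with 10 nM dexamethasone, whereas their title and the shared protocol name only F. Pomalidomide and dexamethasone were always given together in PD and FPD, so their shares in PD minus Control and FPD minus Control cannot be told apart. If F also received dexamethasone, as labelled, FPD minus F differs by pomalidomide alone, and otherwise by both drugs. All groups are the same cell line. No label says that separate cultures were used for the arrays of 1 group, so the spread behind each p-value may be technical.

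The genes belong to no common pathway. CBLN2 encodes a secreted cerebellin that bridges neurexins and delta glutamate receptors at synapses, and ADAM23 a surface protein of the ADAM family that lacks protease activity and binds LGI proteins and integrins. CABLES1 encodes an adaptor between cyclin-dependent kinases and tyrosine kinases. CCDC110 and SYCP3 are normally expressed in testis: CCDC110 is a cancer-testis antigen with coiled coils, and SYCP3 is a component of the axial elements that organise meiotic chromosomes. CD200R1 is an inhibitory immunoglobulin-type receptor for CD200. CR2, also called CD21, is the B cell receptor for complement C3 fragments. LGALS17A is a transcribed galectin pseudogene. In plasma cell malignancies, pomalidomide is known for loss of IKZF1 and IKZF3 followed by lower IRF4 and MYC, and dexamethasone acts by binding of its receptor to DNA or to other transcription factors.

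Promoter sequence was compared as a description. The shared fall of the genes follows from the choice, and shared control was not tested. RefSeq (GRCh38.p14) gave 9 promoter windows for 7 of the genes, 3 of them for CABLES1. LGALS17A had no entry. In the 250 bases before each transcription start, the E-box CACGTG, bound by MYC and related factors, was present in 3 of the 9 windows, belonging to CABLES1 and CR2, and in 6.34% of all 35116 windows. The letters TGGGAA, which hold the IKAROS core, were present in 3 windows, belonging to CBLN2, CCDC110 and CD200R1, and in 20.8% of all windows. Both strands were searched. The CR2 and CD200R1 windows are shown whole as 1 example of each match, with the matches in capitals and each sequence written 5′ to 3′ on the strand of the gene. The CR2 window is chr1:207454078-207454327 on the plus strand, and the CD200R1 window is chr3:112975104-112975353 on the minus strand.
CR2: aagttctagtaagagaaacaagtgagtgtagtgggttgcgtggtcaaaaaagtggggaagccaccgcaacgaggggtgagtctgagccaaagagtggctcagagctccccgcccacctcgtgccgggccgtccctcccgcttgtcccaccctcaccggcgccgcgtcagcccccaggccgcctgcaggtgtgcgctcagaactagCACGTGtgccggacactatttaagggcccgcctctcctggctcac
CD200R1: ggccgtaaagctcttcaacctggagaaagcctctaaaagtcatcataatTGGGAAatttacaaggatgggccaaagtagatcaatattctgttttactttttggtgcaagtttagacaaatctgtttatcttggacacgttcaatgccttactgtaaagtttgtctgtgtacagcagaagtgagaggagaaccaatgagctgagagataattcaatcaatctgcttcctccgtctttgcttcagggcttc

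The other matches are shown with 10 bases on each side, to let the flanks be compared. The CABLES1 matches begin 90 and 119 bases before 2 different starts, at chr18:23135385-23135410 and chr18:23155696-23155721 on the plus strand. The CBLN2 match begins 88 bases before the start, at chr18:72544415-72544440, and the CCDC110 match, which reads TTCCCA on the gene's strand, 154 bases before the start, at chr4:185471872-185471897, both on the minus strand.
CABLES1, first: gcattccccaCACGTGattccgtgtt
CABLES1, second: atgtggtctcCACGTGgcaggatcct
CBLN2: caggcgcagcTGGGAAacccagcgcg
CCDC110: ccaggccaggTTCCCAgggaagctct
No window of the 7 genes held the glucocorticoid receptor half-site AGAACA, present in 12.4% of all windows, or the E2F letters TTTCCCGC, present in 1.39%. A GC box, GGGCGG, was present in 6 windows and in 42.6% of all, and TATAAA in 3 windows and in 10.7% of all. The windows had a median GC content of 62.8%, against 58.0% for all windows, with CD200R1 lowest at 40.4% and CCDC110 highest at 76.8%. The motifs were chosen after these promoter sequences had been seen, the E-box among them after its letters had been noticed in CABLES1 and CR2, so nothing is read from their counts. A search for 4 longer patterns was also made and is not reported here. The matches describe letters only, and no binding was measured.

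Expression is given as deposited, in log2 RMA units of which 1 is a 2-fold difference, and levels of different genes are not ranked against each other. Over all rows the array medians were 4.23 to 4.27, and arrays within a group were correlated at r = 0.988 to 0.992 across rows, which are not independent replicates. As means over the 12 arrays, the plasma cell markers SDC1, SLAMF7, XBP1, MZB1 and FCRL5 had 10.18, 10.42, 10.79, 11.17 and 3.01. The 6 measured myeloid markers had means of 2.87 to 4.46, and of 5 measured T cell markers CD2 had 4.10, CD28 11.07 and TRAT1 9.48. Here and below, a measured gene is one with a row that carries its symbol in the annotation, and 37519 rows carried none. Values of different probes do not rank abundance, so presence or absence of a marker is not read from them. The summed log2 level of the 8 measured plasma cell markers of 10 listed was 73.99 to 74.12 in Control, 73.82 to 74.64 in F, 72.09 to 72.98 in PD and 72.24 to 72.44 in FPD, so it was lower in the groups in which the 8 genes are low. IRF4 and SLAMF7 were the members of that list with the largest differences, and their part in the results was not tested. The glucocorticoid-induced FKBP5 had 5.57 ± 0.03 in Control, 5.74 ± 0.30 in F, 7.06 ± 0.12 in PD and 7.25 ± 0.04 in FPD (mean log2 ± SD, n = 3), and DDIT4 had 5.99, 5.97, 10.45 and 10.61 in the same order.

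In each of the 8 genes every PD and FPD array lay below every Control and F array. The gap between the lowest Control or F array and the highest PD or FPD array ran from 0.44 log2 units for ADAM23 to 1.87 for CBLN2. Such separation follows from the choice of genes, and over all genes 15.8% had PD arrays wholly below Control arrays, 15.5% FPD below Control and 15.2% FPD below F. These shares are for single pairs of groups, a weaker condition. The share of all genes with the joint separation was not counted, here or for other genes named below. The median log2 change of the 8 genes was -1.31 in PD minus Control, -1.29 in FPD minus Control and -1.30 in FPD minus F, beside medians over all genes of -0.0027, -0.0155 and -0.0075.

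**Figure D1:**
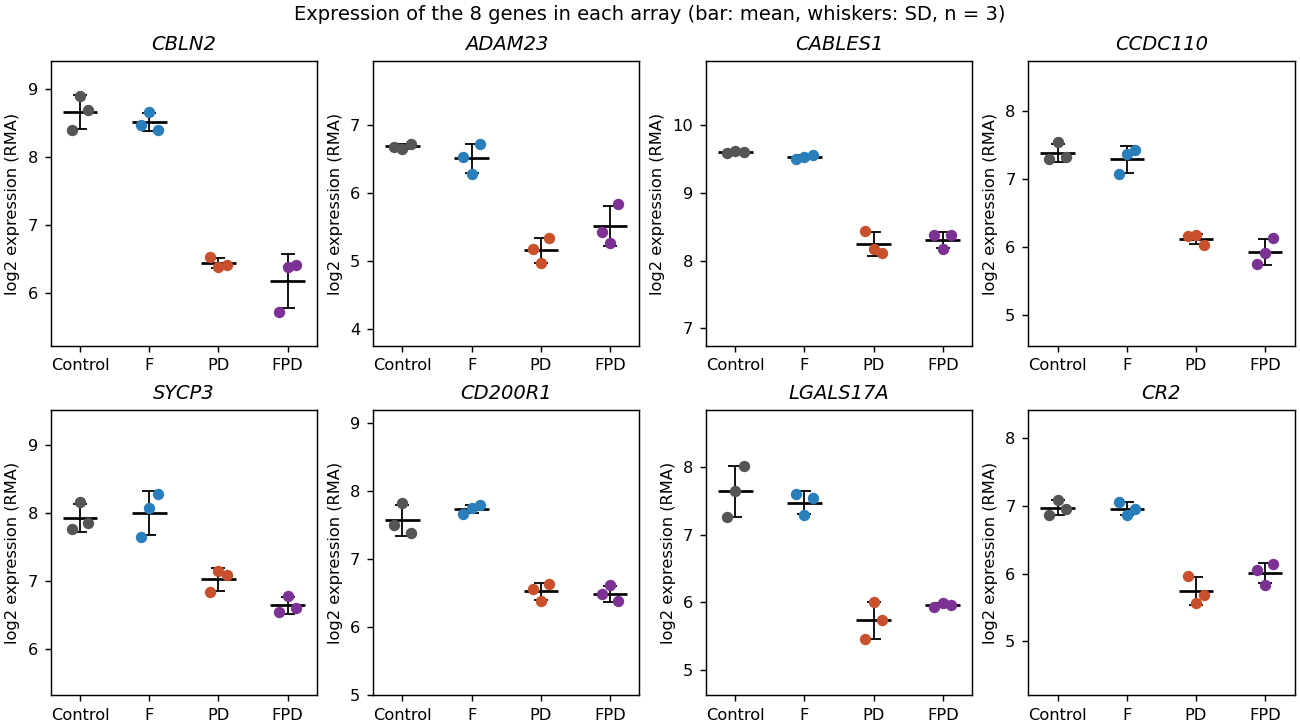
Log2 expression of each of the 8 genes (vertical axis, RMA units, the same span of units in every panel) in the 12 arrays, by group on the horizontal axis. Points are arrays, bars are means and whiskers are SD (n = 3). In every panel the Control and F arrays lie above the PD and FPD arrays.

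CBLN2, the synaptic organiser (transcript cluster 16855898), had the largest falls of the 8. Its values were 8.41, 8.91 and 8.70 in Control, 8.48, 8.67 and 8.40 in F, 6.53, 6.39 and 6.41 in PD, and 5.71, 6.39 and 6.42 in FPD. Control and F overlapped, the PD arrays lay close together, and FPD replicate 1 lay below the others of its group. The log2 change was -2.23 in PD minus Control (4.69-fold lower), -2.50 in FPD minus Control (5.66-fold lower) and -2.35 in FPD minus F. It ranked 1 from the lowest of 14884 genes in FPD minus Control and 2 in the other contrasts that chose the genes.

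LGALS17A, the galectin pseudogene (transcript cluster 16862118), ranked 3, 3 and 4 in PD minus Control, FPD minus Control and FPD minus F. Its values were 7.26, 7.64 and 8.01 in Control, 7.60, 7.28 and 7.54 in F, 5.46, 6.01 and 5.74 in PD, and 5.94, 5.99 and 5.96 in FPD. The Control arrays spread widely (SD 0.37) and the FPD arrays hardly at all (SD 0.026). The log2 changes were -1.90 (3.73-fold lower), -1.68 and -1.51. Cross-hybridisation with related galectin genes was not tested. Beside LGALS17A, only CLC of the listed galectins had a row carrying its symbol, at 3.98 in Control and 3.95 in PD. Galectin genes on rows without a symbol could not be read.

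ADAM23, the surface protein without protease activity (transcript cluster 16889966), had values of 6.68, 6.66 and 6.72 in Control and 6.53, 6.29 and 6.72 in F. In PD it had 5.17, 4.97 and 5.34, and in FPD 5.42, 5.27 and 5.84. FPD replicate 3 was the highest of the 6 arrays with pomalidomide, and the PD and FPD arrays overlapped. The log2 change was -1.53 in PD minus Control (2.89-fold lower), -1.18 in FPD minus Control and -1.001 in FPD minus F.

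CABLES1, the kinase adaptor, was measured by transcript clusters 16851427 and 16854243, and the brighter, 16851427, stood for the gene. The brighter row had 9.59, 9.61 and 9.59 in Control, 9.50, 9.52 and 9.55 in F, 8.44, 8.18 and 8.11 in PD, and 8.38, 8.16 and 8.37 in FPD. Every F array lay below every Control array, by at least 0.037 log2 units, which was also so, downwards, for 5.15% of all genes. The log2 changes were -1.36 in PD minus Control (2.56-fold lower), -1.30 in FPD minus Control and -1.22 in FPD minus F. The dimmer row scattered more, with 6.71, 6.26 and 6.69 in Control and 6.39, 6.40 and 6.87 in F. In PD it had 5.73, 4.80 and 6.50, and in FPD 5.54, 4.86 and 5.99. Through PD replicate 3 its PD arrays overlapped Control and F, while its FPD arrays lay below both. With the mean of both rows the PD minus Control change was -1.12.

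CCDC110, the cancer-testis antigen (transcript cluster 16982147), had 7.30, 7.55 and 7.32 in Control, 7.07, 7.37 and 7.44 in F, 6.16, 6.17 and 6.03 in PD, and 5.75, 5.91 and 6.13 in FPD. FPD replicates 1 and 2 lay below all PD arrays, and FPD replicate 3 lay within the PD range. The log2 changes were -1.27 in PD minus Control (2.41-fold lower), -1.46 in FPD minus Control and -1.36 in FPD minus F.

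SYCP3, the meiotic axis protein (transcript cluster 16769144), had 7.77, 8.16 and 7.85 in Control, 7.64, 8.07 and 8.28 in F, 6.83, 7.15 and 7.09 in PD, and 6.54, 6.78 and 6.60 in FPD. It was the only one of the 8 genes whose FPD arrays all lay below the PD arrays, by at least 0.053 log2 units, a downward separation shared by 6.35% of all genes. The log2 change was -0.90 in PD minus Control (1.87-fold lower, rank 86), -1.29 in FPD minus Control (rank 14) and -1.36 in FPD minus F (rank 9).

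CD200R1, the receptor for CD200 (transcript cluster 16957433), had 7.50, 7.82 and 7.39 in Control, 7.67, 7.75 and 7.79 in F, 6.57, 6.38 and 6.63 in PD, and 6.48, 6.61 and 6.38 in FPD. Control and F overlapped, as did PD and FPD. The log2 changes were -1.04 (2.06-fold lower), -1.08 and -1.25 in PD minus Control, FPD minus Control and FPD minus F. Its ligand gene CD200 had a mean of 3.92 in Control and 4.02 in PD.

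CR2, the complement receptor (transcript cluster 16676795), had 6.87, 7.09 and 6.95 in Control, 7.05, 6.87 and 6.95 in F, 5.97, 5.56 and 5.69 in PD, and 6.05, 5.84 and 6.14 in FPD. The F and Control arrays overlapped. FPD replicates 1 and 3 lay above all PD arrays, and FPD replicate 2 lay within the PD range. The log2 changes were -1.23 (2.35-fold lower, rank 21), -0.96 (rank 44) and -0.95 (rank 43) in the 3 contrasts.

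The rule named no numerical limit. With a log2 change of -1 or lower as a mark, 51 genes were reached in PD minus Control, 36 in FPD minus Control and 36 in FPD minus F, and 22 genes in all 3, of which 6 belong to the 8 described here. SYCP3 missed the mark in PD minus Control at -0.90, and CR2 missed it in FPD minus Control and in FPD minus F. The other 16 genes included the chemokine CXCL10, the transcription factors IRF4 and MYB, and ANKRD37.

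**Figure D2:**
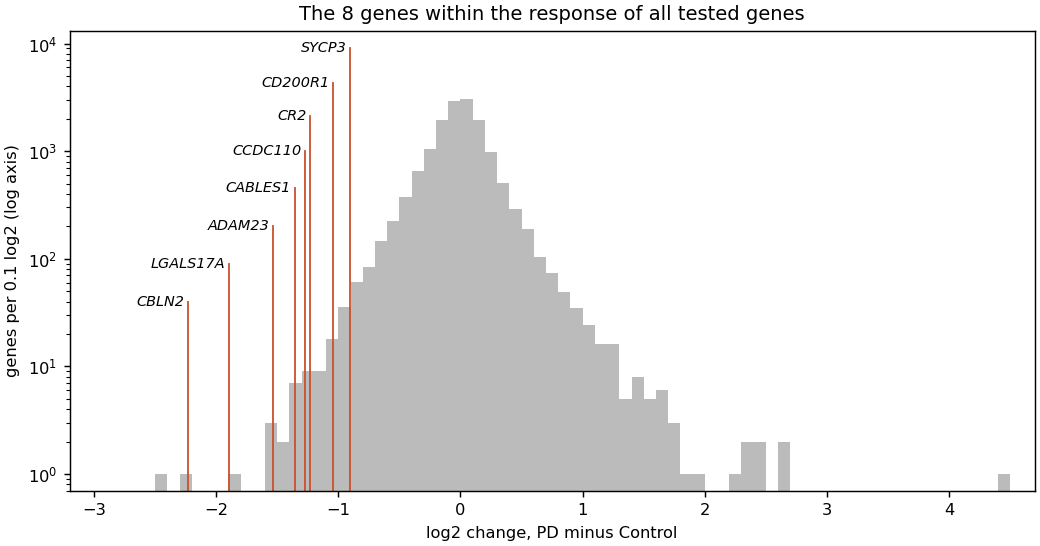
Distribution of the log2 change in PD minus Control (horizontal axis) over the 14884 tested genes, as genes per bin of 0.1 on a log axis. Vertical lines mark the 8 genes, whose heights have no meaning; the genes run from -2.23 for CBLN2 to -0.90 for SYCP3, at the lower end of the distribution.

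The effect of the F arm alone was determined by comparing F with Control. In F, 0 of 8 passed an adjusted p of 0.05 (limma, Benjamini-Hochberg over all genes), beside 0.00672% of all genes. An unadjusted limma p under 0.05 was reached by 0 of 8, beside 6.01% of all genes. The choice of the genes bears on these counts and on those for the next 2 contrasts, so they only describe. The log2 changes ran from -0.18 for ADAM23 (95% interval -0.48 to 0.13) to 0.17 for CD200R1 (-0.073 to 0.41), with 6 of the 8 negative and a median of -0.086. For CBLN2 the change was -0.15 (95% interval -0.50 to 0.19), and for CR2 it was -0.014 (-0.26 to 0.23). Single arrays moved these values. ADAM23 had -0.065 without F replicate 2 and -0.28 without F replicate 3, CBLN2 -0.037 without Control replicate 2 and -0.29 without Control replicate 1, and CD200R1 0.080 without Control replicate 3 and 0.30 without Control replicate 2.

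The effect of adding filanesib to pomalidomide and dexamethasone was determined by comparing FPD with PD. Again 0 of 8 genes passed the adjusted threshold in limma, where 0.0336% of all genes did, and 3 had an unadjusted p under 0.05, as did 8.62% of all genes. SYCP3 had the lowest value (log2 change -0.38, 95% interval -0.70 to -0.068), and ADAM23 the highest (0.35, 0.049 to 0.66). CR2 had 0.27 (0.023 to 0.51). CBLN2 (-0.27) and CCDC110 (-0.19) had negative values and LGALS17A (0.22) a positive one, while CABLES1 (0.061) and CD200R1 (-0.036) lay close to 0. The 8 genes thus split evenly, 4 negative and 4 positive, with a median of 0.013. CBLN2 had -0.041 without FPD replicate 1, ADAM23 0.19 without FPD replicate 3, CCDC110 -0.10 without FPD replicate 1 and -0.29 without FPD replicate 3, and LGALS17A 0.086 without PD replicate 1 and 0.36 without PD replicate 2.

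The contrast FPD - PD - F + Control is 0 where the log2 changes add up, and it equals FPD minus F less PD minus Control. It concerns filanesib alone only if F received no dexamethasone, which the labels leave unsettled. In this contrast 0 of 8 genes passed the adjusted threshold in limma, as did 0% of all genes, and 2 (ADAM23 and SYCP3) had an unadjusted p under 0.05, as did 5.6% of all genes. The log2 value was 0.53 for ADAM23, with -1.53 in PD minus Control and -1.001 in FPD minus F, and -0.45 for SYCP3, with -0.90 and -1.36. CD200R1 had -0.21 and LGALS17A 0.39.

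**Figure D3:**
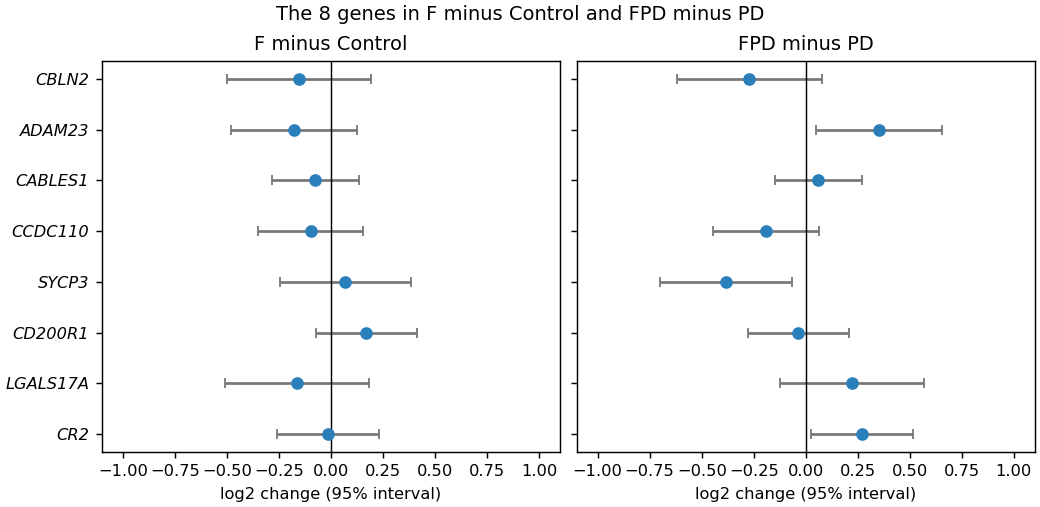
Log2 change (points, horizontal axis) with its 95% interval from limma (whiskers) for each of the 8 genes (vertical axis) in F minus Control and FPD minus PD. Values run from -0.18 for ADAM23 to 0.17 for CD200R1 in the first panel and from -0.38 for SYCP3 to 0.35 for ADAM23 in the second.

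Relatives and partners of the genes were examined in 9 lists, of whose 146 genes 68 were measured, meaning that a row carried their symbol. A listed gene without such a row may still be on the array, since 37519 rows carried no symbol. In PD minus Control 3 of the 68 were higher and 3 lower, or 6 in all (limma adjusted p under 0.05), beside 15.5% of all genes called, 6.84% higher and 8.63% lower. Their median log2 change was -0.018, and that of all genes -0.0027. In FPD minus Control 5 were higher and 1 lower, where 7.26% and 5.89% of all genes were, and in FPD minus F 4 were higher and 2 lower, where 7.5% and 6.64% were. By limma 0 of the 68 passed in F minus Control, with 10 at an unadjusted p under 0.05 (6.01% of all genes), and 0 in FPD minus PD, with 8 (8.62% of all genes).

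**Figure D4:**
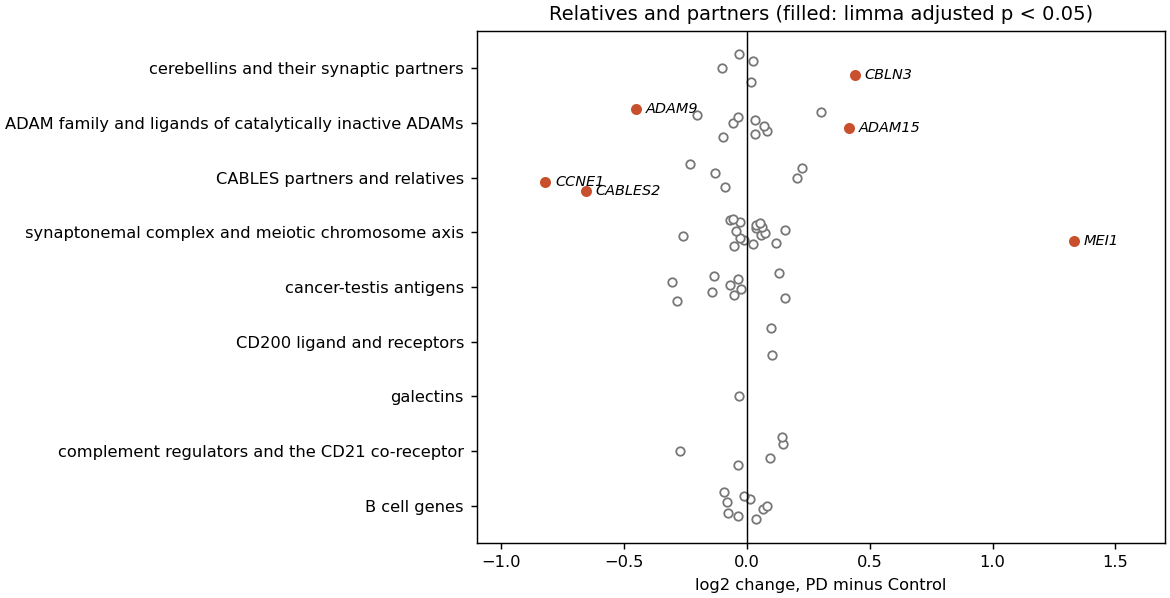
Log2 change in PD minus Control (horizontal axis) of the measured relatives and partners of the 8 genes, by list. Filled points have a limma adjusted p under 0.05; MEI1 stands highest at 1.33 and CCNE1 lowest at -0.82.

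The families were then read list by list. Among 5 measured cerebellins and synaptic partners, CBLN3 rose in PD (log2 change 0.44, limma adjusted p = 0.00822) and none fell. CBLN3 did not pass in FPD minus Control (0.25, limma adjusted p = 0.137) or in FPD minus F (0.24, limma adjusted p = 0.16). Of 11 ADAM genes, ADAM15 rose (0.42, limma adjusted p = 0.0111) and ADAM9 fell (-0.45, limma adjusted p = 0.0288). ADAM15 no longer passed when Control replicate 2 (limma adjusted p = 0.0603) or PD replicate 3 (0.0592) was left out. For ADAM9 the limma adjusted p was 0.137 when Control replicate 2 was left out, 0.0584 for Control replicate 3, 0.069 for PD replicate 1 and 0.144 for PD replicate 3. It was 0.0552 after renewed quantile normalization, 0.0957 over all rows and 0.0836 in the arrays of PD and Control alone. In FPD minus Control ADAM15 passed (0.43, limma adjusted p = 0.011) and ADAM9 did not (-0.29, limma adjusted p = 0.183).

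Of 7 measured partners and relatives of CABLES1, 2 fell in PD and none rose. CCNE1, the cyclin that activates CDK2, had 8.83, 8.88 and 8.59 in Control, 8.44, 8.53 and 8.66 in F, 7.86, 8.01 and 7.98 in PD, and 7.98, 7.95 and 8.05 in FPD (PD minus Control -0.82, limma adjusted p = 3.46e-05). The arrays with pomalidomide lay apart from and below those without it. The paralogue CABLES2 fell by 0.66 (limma adjusted p = 0.0141). It did not pass when Control replicate 2 was left out (limma adjusted p = 0.0611), nor did it when Control replicate 3 (0.0521) or PD replicate 2 (0.0804) was, or over all rows (0.0665). In FPD minus Control CCNE1 passed (-0.78, limma adjusted p = 6.49e-05) and CABLES2 did not (-0.40, limma adjusted p = 0.149).

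Of 18 measured genes of the synaptonemal complex and the meiotic axis, to which SYCP3 belongs, none fell in PD and 1 rose. Several had low signals in Control already, such as SYCP2 (2.69), TEX11 (2.54) and SPO11 (2.98), beside array medians of 4.23 to 4.27. A fall could hardly show in these, whereas MSH5 had 7.92 and SYCP3 itself 7.93. MEI1, required for meiotic recombination, had 5.42, 5.68 and 5.92 in Control, 5.52, 5.50 and 5.70 in F, 6.89, 6.94 and 7.18 in PD, and 7.13, 6.97 and 6.57 in FPD (PD minus Control 1.33, 2.51-fold higher, limma adjusted p = 1.29e-05). Thus the arrays of MEI1 separated in the direction opposite to SYCP3. Of 10 measured cancer-testis antigens, the class of CCDC110, 0 passed the adjusted threshold of limma in PD and 2 had an unadjusted p under 0.05, as did 26.5% of all genes (median log2 change -0.061). Of the 5 measured complement genes and CR2 partners 0 passed and 1 had an unadjusted p under 0.05 (median 0.096). Of 9 B cell genes 0 passed, and 0 had an unadjusted p under 0.05 (median -0.011). The log2 changes of CD200R1L and of CD200 were both 0.10 (limma adjusted p = 0.572 and 0.713). In Control CD200R1L had 2.87, and of the B cell genes BANK1 had 2.92 and SPIB 6.01. The same limit therefore holds for the dimmer genes of these lists.

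Neighbouring genes were examined next, by the order of genes in RefSeq, among tested genes only, and this was chosen after the values of the 8 genes had been seen. Genes without a row carrying their symbol were skipped. A direct neighbour is therefore the nearest tested gene, and other genes may lie between. Of the 16 genes directly beside the 8, 4 fell and 1 rose in PD (limma), which is 25% lower and 6.25% higher against 8.63% and 6.84% of all genes. Among the 4 that fell, SLC35D4 and CHPT1 overlap their starting gene in RefSeq, and UFSP2 and PDLIM3 both flank CCDC110. Over the 5 nearest on each side, 13 of 80 fell (16.2%) and 4 rose (5%), with a median of -0.029. In FPD minus Control 5 of the 16 direct neighbours fell and 1 rose, where 5.89% and 7.26% of all genes did. In FPD minus F 6 fell and 1 rose, where 6.64% and 7.5% did. With 8 starting genes these shares rest on few loci, and they were not tested.

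Around CCDC110, 3 of 10 neighbours fell and none rose. ANKRD37, an ankyrin repeat gene, stood second on the left, with 6.26, 6.48 and 6.28 in Control, 5.92, 6.71 and 5.79 in F, 4.79, 4.88 and 4.68 in PD and 4.63, 4.68 and 4.71 in FPD (PD minus Control -1.56, limma adjusted p = 1.26e-05). PDLIM3, a PDZ and LIM domain protein of the actin cytoskeleton and the first gene on the right, had 6.65, 7.02 and 6.90 in Control, 6.70, 6.78 and 6.66 in F, 5.96, 5.82 and 6.12 in PD and 5.99, 5.65 and 6.10 in FPD (-0.89, limma adjusted p = 0.000133). UFSP2, a protease that processes the ubiquitin-like UFM1 and the first gene on the left, fell by 0.45 (limma adjusted p = 0.00269). For ANKRD37, PDLIM3 and UFSP2 all arrays with pomalidomide lay below all those without it. UFSP2 had the narrowest gap, from 7.62 in PD to 7.75 in F. The share of all genes that separate in this way was not counted. The next genes outwards did not pass in PD minus Control: LRP2BP had -0.19 (limma adjusted p = 0.307), CFAP97 -0.20 (0.172) and SORBS2 -0.076 (0.655). In FPD minus F, however, LRP2BP passed (-0.45, limma adjusted p = 0.0117) and CFAP97 did not (-0.087, limma adjusted p = 0.647). LRP2BP did not pass in FPD minus Control (-0.27, limma adjusted p = 0.135), and had 0.18 in F minus Control (limma adjusted p = 0.893).

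Beside CABLES1, SLC35D4, which the annotation also calls TMEM241 and which overlaps CABLES1 in RefSeq, had 6.22, 6.61 and 6.31 in Control, 6.39, 6.34 and 6.17 in F, 5.47, 4.99 and 5.14 in PD and 5.45, 5.23 and 5.50 in FPD. Its log2 change was -1.18 in PD minus Control (limma adjusted p = 1.58e-05) and -0.91 in FPD minus F (limma adjusted p = 0.000204), and its groups with and without pomalidomide did not overlap. Further right RIOK3 rose (0.44, limma adjusted p = 0.0154) while RMC1 (-0.35, limma adjusted p = 0.0356) and ANKRD29 (-0.40, limma adjusted p = 0.0461) fell. These 3 calls were weak. RIOK3 did not pass when Control replicate 3 was left out (limma adjusted p = 0.0826) or over all rows (0.0538). RMC1 had limma adjusted p-values of 0.0572 to 0.131 when any 1 of the 6 Control and PD arrays was left out, 0.0773 after renewed quantile normalization and 0.0897 over all rows. ANKRD29 had 0.0501 to 0.157 when Control replicate 1 or 2, F replicate 1 or 2, PD replicate 1 or 2 or FPD replicate 2 was left out. Whether overlapping transcripts share signal on the array was not tested.

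Beside SYCP3 the neighbours moved in opposite directions. CHPT1, which overlaps SYCP3 and encodes a choline phosphotransferase, fell by 0.38 (limma adjusted p = 0.0171). Its limma adjusted p was 0.053 when Control replicate 2 was left out, 0.0566 for PD replicate 1 and 0.0576 for PD replicate 3. DRAM1, a lysosomal membrane protein involved in autophagy, rose by 0.78 (limma adjusted p = 8.75e-05) from a mean of 4.04 in Control. Of the 10 neighbours of CD200R1, 0 passed the adjusted threshold of limma in PD minus Control. There 2 had an unadjusted p under 0.05, beside 26.5% of all genes. GTPBP8, directly beside CD200R1, passed in FPD minus F (-0.55, limma adjusted p = 0.00654). Against Control it did not pass in FPD (-0.173, limma adjusted p = 0.452), and in F it stood higher (0.375, limma adjusted p = 0.666). The direct neighbours of LGALS17A (EID2 and CLC), ADAM23 (CMKLR2 and FAM237A) and CR2 (YOD1 and CR1L) did not pass the test, with limma adjusted p-values of 0.376 for CR1L to 0.872 for CLC. Farther out among the 5 on each side, some did.

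Right of LGALS17A the kinase gene DYRK1B rose by 1.35 (limma adjusted p = 1.57e-05), and FBL, the nucleolar methyltransferase fibrillarin, fell by 0.37 (limma adjusted p = 0.00833). Around CBLN2, RTTN fell by 0.60 (limma adjusted p = 0.00406) and TIMM21, of the mitochondrial import machinery, by 0.59 (limma adjusted p = 6e-04). Its direct neighbour NETO1 did not pass in PD minus Control (-0.249, limma adjusted p = 0.094) but did in FPD minus Control (-0.395, limma adjusted p = 0.00985). FASTKD2, near ADAM23, fell by 0.46 (limma adjusted p = 0.00965) and did not pass without Control replicate 2 (0.0573). FCMR, the Fc receptor for IgM near CR2, fell by 0.39 (limma adjusted p = 0.0338), with limma adjusted p-values of 0.0597 to 0.153 without Control replicate 2 or 3 or any 1 PD array and 0.098 over all rows. Near SYCP3, GAS2L3 rose by 0.39 (limma adjusted p = 0.0344) and PARPBP fell by 0.34 (limma adjusted p = 0.0354). GAS2L3 had limma adjusted p-values of 0.103 to 0.154 without Control replicate 1 or 3 or PD replicate 1 or 2, and PARPBP 0.0903 to 0.148 without Control replicate 2 or 3 or PD replicate 2 or 3. Over all rows GAS2L3 had 0.0983 and PARPBP 0.0855, and in the PD and Control arrays by themselves 0.069 and 0.0838.

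**Figure D5:**
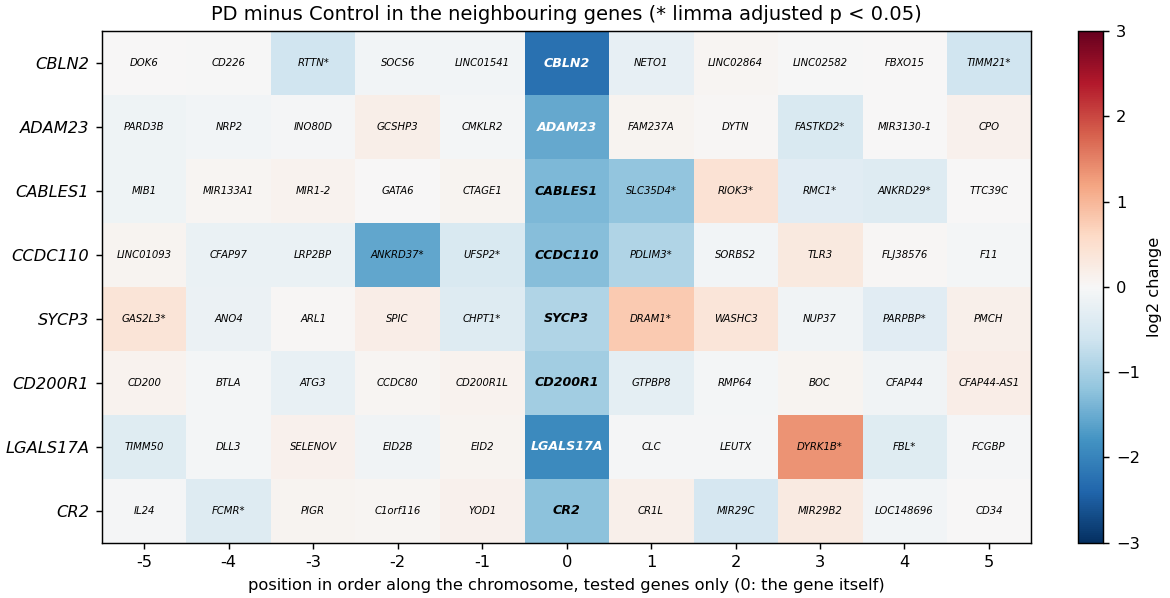
Log2 change in PD minus Control (colour) of the 8 genes (position 0) and of the 5 nearest tested genes on each side, in their order along the chromosome. An asterisk marks a limma adjusted p under 0.05; low values stand side by side around CCDC110 (ANKRD37, UFSP2, PDLIM3) and to the right of CABLES1 (SLC35D4).

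Likeness of pattern was measured as the root mean square difference over the 12 arrays after each gene was centred on its own mean, so that small values mean the same shape and the same size of change. CR2 had the closest match of all, SLC35D4 at 0.080 log2 units, followed by RPIA, an enzyme of the pentose phosphate pathway, at 0.11 and the cell cycle phosphatase CDC25A at 0.14. CABLES1 was nearest to MSANTD3-TMEFF1 (0.12), the transcription factor ETS1 (0.12) and IRF4 (0.14), and CD200R1 to SSBP4 (0.12), the ribosome biogenesis factor NOP16 (0.15) and the kinase STK38L (0.15). CCDC110 was nearest to MYB (0.13), MSANTD3-TMEFF1 (0.13) and STK38L (0.15).

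SYCP3 was nearest to CCDC110 (0.19), STK38L (0.20) and CD200R1 (0.20), and ADAM23 to ETS1 (0.18), CR2 (0.18) and CABLES1 (0.20). The largest falls had the loosest matches: LGALS17A was nearest to MYB (0.29), the RNA polymerase III subunit POLR3G (0.30) and NAV1 (0.33), and CBLN2 to CXCL10 (0.43), LGALS17A (0.43) and ANKRD37 (0.45). Of the 24 nearest places 5 were taken by the 8 genes themselves, and of the 14 other genes 13 had a log2 change of -1 or lower in PD minus Control. The measure picks genes of like size, so this describes the lists and tests nothing.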

How the data were processed

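Expression in 12 MM.1S samples, 3 in each of 4 groups, was analysed from the log2 values that the authors deposited, which the submitters' processing notes trace to RMA in Affymetrix Expression Console; versions and genome build are not given in the sources used here. RMA brings arrays to a common distribution and compresses low signals, so changes of dim genes are understated, and 3 arrays per group limit the precision. Groups came from the sample titles. Of 53617 rows, 16098 had 1 gene symbol in the platform annotation, 0 had several and 37519 had none; the row with the highest mean stood for each of 14884 genes. The main model was limma 3.58.1 (R 4.3.3) on group means over the whole set of 12 arrays, two-sided, with Benjamini-Hochberg adjustment over all genes. The model was tested on simulated data. RefSeq GRCh38.p14 gave promoters and gene order only. The 8 genes, the lists and the settings were chosen with earlier results of these data known. Named genes are the 8, the called extremes of each list, the 3 nearest patterns, FKBP5 and DDIT4. Neighbours and genes named for a small count were added after values were seen. Alternatives were each array left out, a replicate block, renewed quantile normalization, an expression filter, row means, all rows, the compared arrays alone, and trended robust moderation.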

Additional observations from a re-analysis of the deposited data

How the results depend on the processing

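The falls of the 8 genes in PD minus Control, FPD minus Control and FPD minus F kept their sign under all 19 alternatives. Of 456 values, 455 moved by less than the spread between replicates or not at all. The exception was CABLES1 as the mean of its rows (-1.12 in PD minus Control). Many of these values could not move. A log2 change stays the same when an array outside the compared groups is left out. It also stays with the replicate block, the expression filter, all rows, the compared arrays alone and trended robust moderation. Row means could alter CABLES1 only. The genes were picked for these falls, so the kept signs describe the choice. None of the 8 passed the adjusted threshold in F minus Control, FPD minus PD or the departure from additivity. This held in all 448 values that the 19 alternatives gave for these genes and contrasts. Signs turned in 13 of these values, which lay near 0. In F minus Control, leaving out single arrays gave -0.17 to 0.012 for CCDC110, -0.071 to 0.25 for SYCP3, -0.35 to 0.021 for LGALS17A and -0.064 to 0.044 for CR2. In FPD minus PD it gave -0.005 to 0.16 for CABLES1 and -0.11 to 0.021 for CD200R1, and in the departure -0.24 to 0.11 for CBLN2. The mean of the rows turned CABLES1 to -0.078 in FPD minus PD and -0.040 in the departure. The cause was not tested. Only the 2-group fit gives no departure.

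Counts over all genes moved where they were small. In F minus Control the 1 call became 0 with the replicate block, 0 among genes above the median mean, 32 over all rows and 4 with trended robust moderation, and 0 to 2 without single arrays. In FPD minus PD the 5 calls became 0 with the replicate block, 20 above the median mean, 0 with row means, 94 over all rows, 8 in the compared arrays alone and 31 with trended robust moderation, and 0 to 15 without single arrays. Among relatives and partners, PD minus Control had 6 calls and 3 to 8 without single arrays, and FPD minus PD had 0 and, with trended robust moderation, 1. The labels do not say whether equal numbers in the titles mark paired samples. Residual correlations were over 0.1 in 5 of 18 same-numbered pairs. Their median was 0.017 for equal and -0.013 for different numbers, which does not settle whether samples were paired. The replicate block changed no call among the 8 genes. ANKRD29 missed the threshold with the block (limma adjusted p = 0.0687), in the PD and Control arrays by themselves (0.0516) and when every row was tested (0.129). Renewed quantile normalization turned the split in PD minus Control from 1018 higher and 1284 lower to 1157 and 1081.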
